A study of Mus musculus with 12 samples.

Results

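The comparison described here is that of H9c2 cells given MgHCF together with doxorubicin (D_MgHCF, 3 libraries) with H9c2 cells given doxorubicin alone (DOX, 3 libraries). These are 6 of the 12 libraries of the study, all of poly(A) RNA taken after 6 h of treatment, with untreated cells (Unt, 3 libraries) used for reference levels. The cells were from the line H9c2(2-1), labelled as wild-type myoblasts. The study describes the line as rat cardiomyoblasts, whereas GEO lists the organism as mouse and the genes carry mouse Ensembl identifiers on GRCm38. The genes compared had an FPKM of at least 1 in 3 or more of the 6 libraries. This held for 11595 of the 54345 genes listed. FPKM stands for reads per unit of gene length, scaled by the library depth used in the deposited values. The doses given to the sequenced cells, and whether the replicates came from separate cultures, are not given in the sources used here, so the p-values measure the spread between these libraries. The line is a single cell population in culture, and fewer cells of a state and less RNA per cell cannot be told apart in bulk RNA.

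Doxorubicin (DOX) is an anthracycline that traps type II topoisomerases on DNA, and iron-dependent oxidation is a known part of its toxicity to heart muscle. MgHCF is a magnesium hexacyanoferrate nanocatalyst assembled with polyvinylpyrrolidone, made to take up ferrous ions. The comparison asks which transcripts differ once MgHCF is present in DOX-treated cells, and how far the replicate libraries share the difference.

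The reads on genes numbered 16626514 to 19365119 per library. In the DOX libraries the 50 most abundant genes held 17.2% to 18.1% of the reads, compared with 12.9%, 10.8% and 8.77% in D_MgHCF replicates 1, 2 and 3. Mitochondrial ribosomal RNA held 0.813% to 0.945% in DOX and 0.359%, 0.228% and 0.0814% in D_MgHCF. Of the markers of the labelled cell type, Myod1, Myog, Myf5, Myf6, Pax7 and Actc1 had a mean FPKM under 0.1 in both groups, and 2 of the 10 myogenic markers reached an FPKM of 1 in any library. The 7 mesenchymal markers summed to 1018 to 1322 FPKM in DOX and to 140.1 to 229.7 in D_MgHCF. Most of this was Vim, with a mean of 1042 in DOX and 121.6 in D_MgHCF, and Col1a1, Col1a2 and Col3a1 also fell. Pdgfrb (8.35 in DOX and 10.9 in D_MgHCF), Pdgfra (0.352 and 0.537) and Thy1 (0.0243 and 0.0335) had higher means in D_MgHCF. The endothelial and epithelial markers summed to at most 1.63 in any library. The 5 leukocyte markers summed to 2.004 to 5.02, most of it Cd68. Of the cardiomyocyte markers, Gata4 had a mean FPKM of 3.35 in DOX and 19.2 in D_MgHCF, and the others were at or near 0.

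With limma and Benjamini-Hochberg adjustment, 8200 of the 11595 genes passed the threshold of 0.05 (70.7%). Of these, 3782 were higher in D_MgHCF (32.6%) and 4418 were lower (38.1%). With a difference of at least 2-fold as well, 2383 genes were higher (20.6%) and 3035 lower (26.2%). The median log2 fold change of all genes tested was -0.08 with the deposited scaling, in which the FPKM values summed to 498756 to 627769 in the DOX libraries and to 220276 to 290996 in the D_MgHCF libraries. It was 1.01 with TPM, where each library sums to the same total, 0.69 with FPKM over the summed reads and -0.02 with quantile normalization. With TPM 6623 genes were higher and 1266 lower, and with FPKM over the summed reads 6115 were higher and 1933 lower, so the balance of rises and falls depended on the scaling. All of the 3782 higher genes kept their direction under these 3 scalings, compared with 2814 of the 4418 lower genes (63.7%). TPM and FPKM over the summed reads moved log2 fold changes up, so they could reverse falls but hardly rises. The contrast therefore does not show which direction is firmer. Log2 fold changes below are with the deposited scaling, in which a read on genes was worth more FPKM in DOX than in D_MgHCF. Cytosolic ribosomal protein genes, for example, summed to 55316 FPKM with 7.04% of reads in DOX replicate 1. In D_MgHCF replicate 1 they summed to 27032 FPKM with 5.44% of reads. Log2 fold changes are therefore lower here than with FPKM over the summed reads. A list median given with TPM is to be read against the 1.01 of all genes. Counts of called list members are to be read beside the 32.6% higher and 38.1% lower of all genes tested. Relative to the median of all genes, 44 of the 53 function lists lay on the same side under all 4 scalings. The others were small nuclear and nucleolar RNAs, metallothioneins, RNA polymerase II and Mediator, and the lists of magnesium transport, the unfolded protein response, cytokines, lysosomal, hypoxia and cholesterol genes.

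Among called genes without overlap between the groups whose higher group averaged an FPKM of 10 or more, the largest fall was that of Rn7sk (ENSMUSG00000065037, chromosome 9 from 78175303 to 78175633), the 7SK RNA that holds the elongation factor P-TEFb inactive. Its FPKM was 1143, 1992 and 2800.2 in DOX and 6.47, 2.37 and 3.82 in D_MgHCF (log2 fold change -8.55, standard error 0.37, adjusted p = 5.17e-05). All D_MgHCF libraries lay near the level in Unt, where it was 3.36, 1.51 and 2.72, and the RNA carries no poly(A) tail. Transcripts of 5 other genes are near-identical to it (95% identity over 150 bases). The next largest falls were those of the large subunit of ribonucleotide reductase and of the G1 cyclin D1. Rrm1 was at 57.5, 75.7 and 77.7 in DOX and 2.101, 1.62 and 5.14 in D_MgHCF and fell by 4.26 (adjusted p = 0.000104), and Ccnd1 was at 195, 242 and 266 in DOX and 24.8, 15.7 and 17.5 in D_MgHCF and fell by 3.55 (adjusted p = 0.000104), both on the log2 scale. D_MgHCF replicate 3 was the highest of its group for Rrm1, and replicate 1 for Ccnd1. Anxa3 (annexin A3), Cetn3 (centrin 3) and Spop, a substrate adaptor of a ubiquitin ligase, fell by 3.41, 3.20 and 3.16.

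By the same rule the largest rise was that of Junb (ENSMUSG00000052837, chromosome 8 from 84974484 to 84978718), a subunit of the transcription factor AP-1, at 11.7, 7.32 and 3.46 in DOX and 65.5, 78.6 and 55.6 in D_MgHCF (log2 fold change 3.11, standard error 0.35, adjusted p = 0.000186). Junb overlaps Prdx2 on the opposite strand, and whether the counting used strand is not given in the sources used here. Btg2 (ENSMUSG00000020423, chromosome 1 from 134075170 to 134079120), an antiproliferative gene, had an FPKM of 8.48, 3.38 and 1.73 in DOX and 26.2, 48.3 and 52.1 in D_MgHCF (log2 fold change 3.10, standard error 0.44, adjusted p = 0.00039). Genes with overlapping groups were not eligible. In both genes the DOX libraries differed from each other by larger factors than the D_MgHCF libraries did. The Cdc42 effector Cdc42ep2, the early response gene Ier5l, Mad2l1bp, which binds a spindle checkpoint protein, the small GTPase Arl4d and the vacuolar sorting gene Vps18 rose by 3.05, 2.90, 2.84, 2.82 and 2.71. Areg (ENSMUSG00000029378), which encodes the ErbB ligand amphiregulin and is listed in the table under the symbol of another gene, had an FPKM of 1.84, 0.962 and 0.711 in DOX and 27.03, 19.1 and 4.63 in D_MgHCF and rose by 2.79 (adjusted p = 0.00152).

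**Figure D1:**
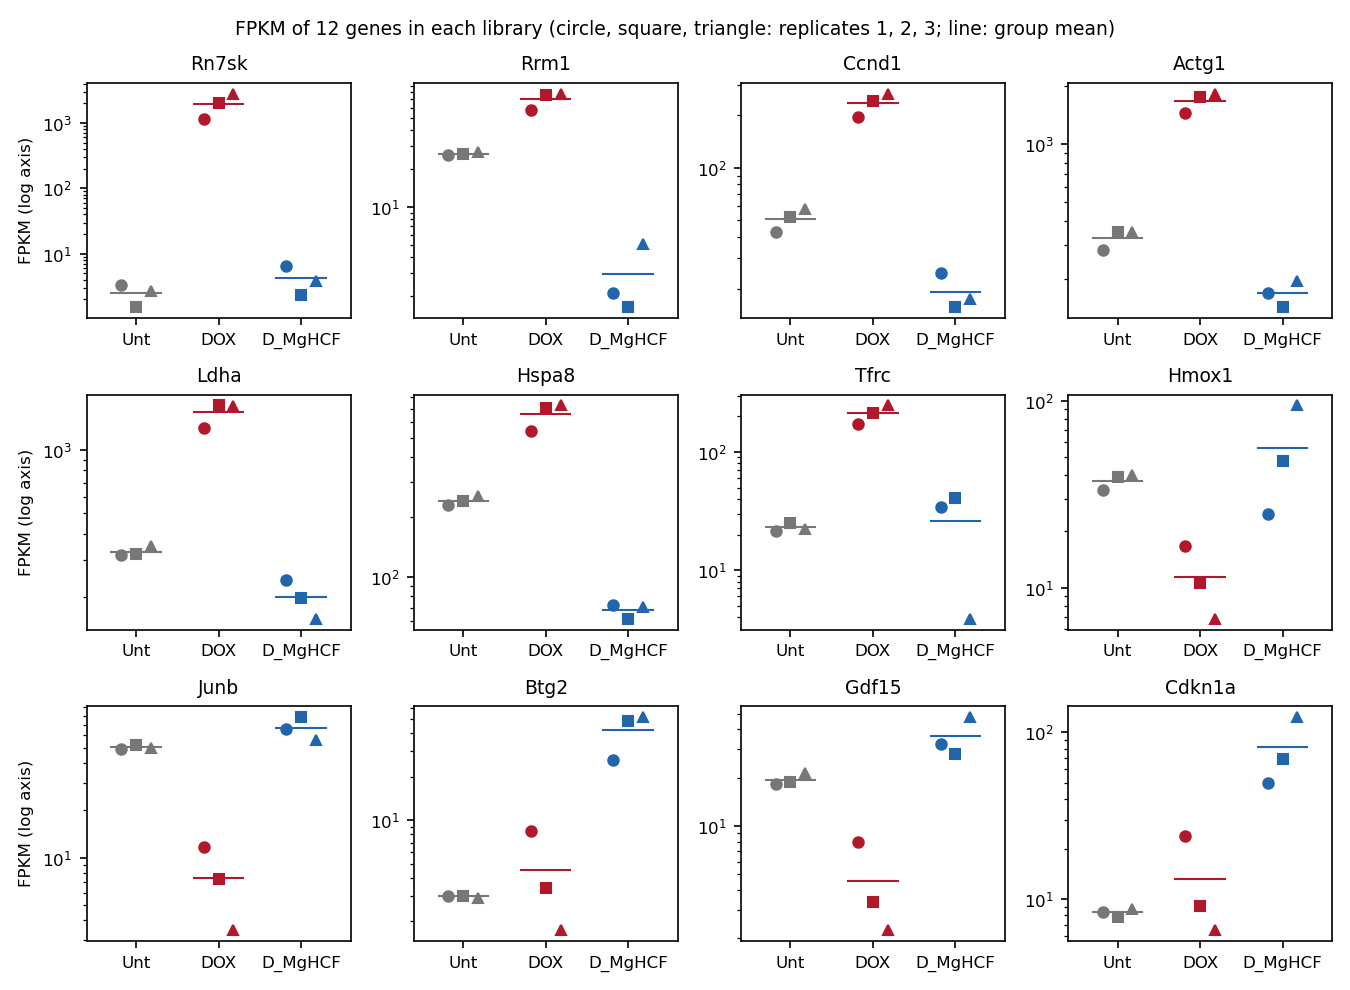
FPKM on a log axis of 12 genes in the 3 Unt (grey), 3 DOX (red) and 3 D_MgHCF (blue) libraries, where symbols stand for replicates 1 (circle), 2 (square) and 3 (triangle) and the line for the group mean. Rn7sk, Rrm1, Ccnd1, Actg1, Ldha, Hspa8 and Tfrc were lower in every D_MgHCF library than in every DOX library, and Hmox1, Junb, Btg2, Gdf15 and Cdkn1a were higher. Tfrc in D_MgHCF replicate 3 lay at 3.87, far under the other D_MgHCF libraries.

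Immediate early genes, which are induced within minutes by growth factors and stress, rose together. Of 17 tested, 16 were higher and 0 lower in D_MgHCF, with a median log2 fold change of 2.17 against -0.08 over all genes tested. Together they held 0.0257, 0.0179 and 0.0150% of the reads in the DOX libraries, 0.174, 0.191 and 0.133% in D_MgHCF and 0.0862, 0.0923 and 0.0878% in Unt. Each D_MgHCF library was thus above every DOX and every Unt library. Ier3, an early response gene tied to survival, had an FPKM of 4.14, 2.89 and 2.904 in DOX and 57.2, 53.4 and 12.3 in D_MgHCF (log2 fold change 3.02, standard error 0.50, adjusted p = 0.000804). Fosl1, the AP-1 subunit FRA1, was at 7.37, 3.06 and 3.697 in DOX and 53.2, 48.8 and 18.3 in D_MgHCF (log2 fold change 2.78, standard error 0.42, adjusted p = 0.000505). In both, D_MgHCF replicate 3 was the lowest of its group and still above all DOX libraries. The Fosl1 transcripts match Ccdc85b over 1056 bases, so reads could be divided between them.

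The feedback inhibitors of MAPK signalling, which are transcribed when the pathway is active and dampen it, moved in the same direction. Of 14 tested, 12 were higher (85.7%, beside 32.6% of all genes) and 0 lower (beside 38.1%), with a median of 1.49. The list holds phosphatases that act on p38, JNK and ERK. Dusp1 was at 3.32, 1.07 and 0.769 in DOX and 13.1, 13.8 and 17.3 in D_MgHCF and rose by 2.64 (adjusted p = 0.000238). Dusp5 was at 2.69, 2.301 and 1.96 in DOX and 24.1, 28.5 and 6.44 in D_MgHCF and rose by 2.42 (adjusted p = 0.00155), and its lowest D_MgHCF library was still above the DOX libraries. Dusp6 was at 1.77, 0.896 and 0.718 in DOX and 16.9, 13.7 and 1.35 in D_MgHCF and rose by 2.04 (adjusted p = 0.0225), although its D_MgHCF replicate 3 lay within the DOX range. The call of Dusp6 was lost without DOX replicate 3 or without D_MgHCF replicate 1 or 2 (adjusted p = 0.0575, 0.0561 and 0.0917) and with quantile normalization (0.0676). Dusp4, at 6.13, 5.66 and 4.48 in DOX and 33.4, 22.1 and 4.42 in D_MgHCF, did not pass (adjusted p = 0.0622), whereas without D_MgHCF replicate 3 its log2 fold change was 2.14 (adjusted p = 2.22e-05). It also passed with the replicate number as a block, in the fit over all 4 groups, with TPM and with FPKM over the summed reads (adjusted p = 0.0129, 0.0222, 0.00618 and 0.0139).

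The promoters of Btg2 and Dusp1 are shown because both genes rose and both hold the palindromic cAMP response element TGACGTCA, printed in capitals, in the 250 bases before their annotated start. The sequences are from RefSeq (mouse GRCm38.p6, both on the minus strand and given 5′ to 3′ on it), at chr1:134079156-134079405 for Btg2 and chr17:26508473-26508722 for Dusp1, whereas the cells are described as rat.
Btg2: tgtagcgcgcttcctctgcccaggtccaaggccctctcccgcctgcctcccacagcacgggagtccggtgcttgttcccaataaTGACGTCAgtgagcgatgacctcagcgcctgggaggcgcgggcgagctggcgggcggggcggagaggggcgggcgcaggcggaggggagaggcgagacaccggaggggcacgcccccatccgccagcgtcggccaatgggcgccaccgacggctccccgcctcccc
Dusp1: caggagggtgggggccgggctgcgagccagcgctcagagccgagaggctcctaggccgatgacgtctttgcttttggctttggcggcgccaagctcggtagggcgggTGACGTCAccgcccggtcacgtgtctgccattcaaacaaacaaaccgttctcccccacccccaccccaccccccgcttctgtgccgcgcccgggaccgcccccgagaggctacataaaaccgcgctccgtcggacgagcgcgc
The motif begins 166 bases before the start of Btg2 and 143 bases before that of Dusp1. Of the 9967 protein-coding genes tested, 7884 had a promoter in the RefSeq table. The motif, which reads the same on both strands, was in 3.5% of the 2744 promoters of higher genes, 2.72% of the 2902 of lower genes and 2.68% of the 2238 of genes not called. It was in 1 of the 13 immediate early promoters and 2 of the 13 MAPK feedback promoters with a sequence, and in 1.62% of all 27025 promoters in the table. These shares describe the letters in the window and not binding.

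Receptor and growth control lists with few members moved the same way. In the ErbB list 5 of 6 genes were higher and 0 lower (median 1.39). Hbegf, a ligand of the EGF receptor, was at 5.11, 3.78 and 2.77 in DOX and 45.1, 49.6 and 10.1 in D_MgHCF (log2 fold change 2.63, adjusted p = 0.00199), and the receptor Erbb3 at 1.89, 0.738 and 0.460 in DOX and 8.61, 7.55 and 8.85 in D_MgHCF (2.26, adjusted p = 0.000203). Erbb3 was nearly even over the D_MgHCF libraries, whereas Hbegf was lowest in replicate 3, as Areg was. Of the Notch, HES, HEY and ID genes 7 of 8 were higher and 0 lower (median 1.67). They included Id2, an inhibitor of basic helix-loop-helix factors, and the Notch target Hes1. Id2 was at 2.405, 1.66 and 1.702 in DOX and 19.99, 23.01 and 5.53 in D_MgHCF and rose by 2.36 (adjusted p = 0.00148), and Hes1 was at 2.36, 0.650 and 0.764 in DOX and 11.9, 9.55 and 5.500 in D_MgHCF and rose by 2.17 (adjusted p = 0.000617). Both were above DOX in every D_MgHCF library and lowest in replicate 3.

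Among KLF transcription factors 10 of 11 were higher and 0 lower (median 1.06), with Klf4 at 3.69, 1.89 and 1.25 in DOX and 19.1, 20.5 and 16.2 in D_MgHCF (log2 fold change 2.64, standard error 0.27, adjusted p = 0.000163). The NF-kB list had 8 of 9 higher and 1 lower (median 0.96). Nfkbia, the inhibitor that NF-kB induces and that holds it in the cytoplasm, was at 3.85, 1.74 and 2.42 in DOX and 21.3, 24.8 and 18.2 in D_MgHCF and rose by 2.64 (adjusted p = 0.000131). Of the clock genes 10 of 13 were higher and 0 lower (median 1.12), among them the repressors Cry1 and Nr1d1. Cry1 was at 5.11, 4.04 and 3.44 in DOX and 28.5, 30.6 and 13.97 in D_MgHCF and rose by 2.23 (adjusted p = 0.00031). Nr1d1 was at 2.06, 0.785 and 0.674 in DOX and 7.47, 8.72 and 9.45 in D_MgHCF and rose by 2.19 (adjusted p = 0.000209), and it overlaps Thra on the opposite strand. The rise of Nr1d1 was even over the D_MgHCF libraries, and that of Cry1 was smallest in replicate 3. The MYC network list had 6 of 10 higher (60%, beside 32.6% of all genes) and 0 lower (beside 38.1%), with a median of 0.91. In the KLF, NF-kB and clock lists 2 genes each passed the filter through 1 group alone, and in the MYC list 0. The immediate early and MAPK feedback lists above held 1 such gene each. Of all genes tested 8.34% were of this kind. The lists were not counted again without them.

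Zfp zinc finger genes, a large family of mostly low-level DNA-binding proteins, were higher in 109 and lower in 13 of 178 tested (61.2% higher, beside 32.6% of all genes tested), with a median of 0.75 and per-library medians of 0.66, 0.79 and 0.66. Of the list, 38 genes (21.3%) passed the filter through 1 group alone, beside 8.34% of all genes tested. Without such genes, a choice made after seeing the data, 75 of 140 were higher (53.6%) and 11 lower (7.86%), beside 28.6% and 39.6% of the 10628 genes left of all those tested. Zfp46 was at 2.15, 1.36 and 1.24 in DOX and 10.3, 11.99 and 9.02 in D_MgHCF and rose by 2.16 (adjusted p = 0.000147).

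p53 targets and members of the BCL2 family rose more often than they fell, without a single direction for apoptosis. Of the p53 targets 22 of 30 were higher (73.3%, beside 32.6% of all genes) and 3 lower (10%, beside 38.1%), with a median of 1.49. Gdf15, a secreted stress cytokine, was at 7.97, 3.37 and 2.24 in DOX and 32.3, 28.3 and 47.96 in D_MgHCF (log2 fold change 2.85, standard error 0.37, adjusted p = 0.000272). The receptor gene Eda2r was at 6.005, 1.77 and 1.45 in DOX and 15.98, 24.3 and 29.9 in D_MgHCF (2.71, adjusted p = 0.000466). Cdkn1a, the CDK inhibitor p21, was at 23.8, 9.05 and 6.49 in DOX and 50.02, 69.4 and 124 in D_MgHCF and rose by 2.64 (adjusted p = 0.00101). For all 3 genes the groups did not overlap, and D_MgHCF replicate 3 was the highest library.

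In the BCL2 family 6 of 12 were higher (50%) and 3 lower (25%), beside 32.6% and 38.1% of all genes. The rises included both sides of the family. On the pro-apoptotic side Bid was at 4.53, 2.96 and 2.56 in DOX and 16.3, 19.7 and 17.8 in D_MgHCF and rose by 2.14 (adjusted p = 0.000155), and Bcl2l11 was at 4.32, 3.53 and 2.77 in DOX and 16.98, 16.1 and 9.34 in D_MgHCF and rose by 1.71 (adjusted p = 0.000492). On the anti-apoptotic side Bcl2l1 was at 3.17, 1.58 and 1.62 in DOX and 9.01, 9.097 and 8.77 in D_MgHCF and rose by 1.71 (adjusted p = 0.000303), and Mcl1 was at 12.1, 6.68 and 3.89 in DOX and 17.5, 34.4 and 56.7 in D_MgHCF and rose by 2.09 (adjusted p = 0.00307). Bid and Bcl2l1 differed little between D_MgHCF libraries, whereas Mcl1 was highest in replicate 3. Pro-apoptotic Bax was at 85.1, 93.6 and 92.9 in DOX and 37.5, 36.1 and 56.98 in D_MgHCF and fell by 1.07 (adjusted p = 0.00173), with log2 fold changes of 0.13 with TPM, -0.11 with FPKM over the summed reads and 0.05 with quantile normalization, so its direction changed with the scaling.

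Of the caspases, apoptosome genes and inhibitors 3 of 18 were higher (16.7%) and 7 lower (38.9%), beside 32.6% and 38.1% of all genes. The list median was -0.30, or 0.85 with TPM. The caspase of the endoplasmic reticulum was among the falls, as Casp12 was at 10.2, 14.1 and 14.2 in DOX and 1.35, 0.992 and 1.81 in D_MgHCF and fell by 2.53 (adjusted p = 0.000112). The core of the apoptosome divided. Its scaffold Apaf1 was at 2.298, 1.13 and 1.24 in DOX and 6.01, 6.84 and 8.19 in D_MgHCF and rose by 1.67 (adjusted p = 0.000335), whereas cytochrome c, which binds the scaffold once released from mitochondria, was lower. Cycs was at 90.7, 109.7 and 112 in DOX and 38.00, 38.8 and 35.96 in D_MgHCF and fell by 1.44 (adjusted p = 0.000195), and the call was lost with TPM (-0.24, adjusted p = 0.148). The inhibitor of apoptosis Birc2 was at 3.45, 2.08 and 1.55 in DOX and 11.04, 11.8 and 9.39 in D_MgHCF and rose by 1.84 (adjusted p = 0.000276). Parp1 encodes a polymerase that is activated by DNA breaks and cut by caspases. Parp1 was at 99.5, 108 and 120.0 in DOX and 52.05, 38.3 and 37.1 in D_MgHCF and fell by 1.35 (adjusted p = 0.000379), and the call was lost with TPM (-0.16, adjusted p = 0.291) and with quantile normalization (-0.26, adjusted p = 0.2).

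Falls took in the machinery of protein synthesis. Abundant genes fell more often than others, so lists of abundant genes, here and below, are to be read beside them. Of the 1994 protein-coding genes with the highest mean FPKM over both groups, 81.9% were lower and 5.27% higher. The median of those genes was -1.37, or -0.17 with TPM. Of 79 cytosolic ribosomal protein genes 77 were lower and 0 higher, with a median of -1.67 that kept its sign with TPM (-0.46) and quantile normalization (-0.13). The share of all reads on these ribosomal protein genes was 7.04, 7.596 and 7.27% in DOX, 5.44, 4.58 and 3.32% in D_MgHCF and 4.197, 4.38 and 4.35% in Unt. Such a share is itself scaled to the summed reads of a library, so it also depends on the other genes. D_MgHCF replicates 1 and 2 thus lay between DOX and Unt, and replicate 3 below Unt. Rpl4 was at 1270.2, 1615 and 1679 in DOX and 419.7, 285 and 248 in D_MgHCF and fell by 2.28 (adjusted p = 0.0002). Rps26 was at 807, 1141 and 1102 in DOX and 263, 188 and 145 in D_MgHCF and fell by 2.38 (adjusted p = 0.000194). Both were lowest in D_MgHCF replicate 3. Ribosomal protein genes have many near-identical pseudogenes, between which reads could be divided.

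All 20 aminoacyl-tRNA synthetases, which load amino acids onto tRNA, were lower (median -1.76, per-library medians -1.81, -2.04 and -1.78). Farsb, the beta subunit of the phenylalanine enzyme, was at 45.7, 53.7 and 61.3 in DOX and 3.63, 2.82 and 5.78 in D_MgHCF (log2 fold change -3.46, standard error 0.24, adjusted p = 0.000104), and the threonine enzyme Tars at 59.1, 72.5 and 77.8 in DOX and 6.85, 7.34 and 9.204 in D_MgHCF (-3.01, adjusted p = 0.000104). In this list, unlike the ribosomal proteins, D_MgHCF replicate 3 was not the lowest. Of the translation factors 39 of 63 were lower (61.9%, beside 38.1% of all genes) and 8 higher (12.7%, beside 32.6%). Their median was -1.04, or 0.10 with TPM. The scaffold of cap-dependent initiation Eif4g1 was at 380.3, 438 and 497 in DOX and 81.8, 63.1 and 70.4 in D_MgHCF and fell by 2.59 (adjusted p = 0.000104), and the elongation factor Eif5a was at 987, 1244 and 1293 in DOX and 215, 161 and 138 in D_MgHCF and fell by 2.78 (adjusted p = 0.000112). Both kept this direction with TPM.

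RNA polymerase I and nucleolar genes were lower in 16 of 28 (57.1%, beside 38.1% of all genes) and higher in 3 (10.7%, beside 32.6%). Their median was -0.85, or 0.35 with TPM. The pseudouridine synthase gene Dkc1 was at 57.7, 74.4 and 73.5 in DOX and 10.9, 10.1 and 2.68 in D_MgHCF and fell by 3.13 (adjusted p = 0.000288). The nucleolin gene Ncl was at 203, 256 and 271 in DOX and 45.5, 44.5 and 24.95 in D_MgHCF and fell by 2.67 (adjusted p = 0.000145). In both the deepest fall was in D_MgHCF replicate 3. Mitochondrial ribosomal proteins were lower in 45 of 76 (59.2%) and higher in 8 (10.5%), with a median of -0.78, or 0.31 with TPM.

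Of the subunits of the proteasome, which degrades ubiquitin-marked proteins, 32 of 36 were lower (88.9%) and 1 higher (median -1.42, -0.23 with TPM). This lay near the 1994 most abundant protein-coding genes, of which 81.9% were lower (median -1.37, -0.17 with TPM). In the catalytic core Psmb2 was at 172, 247 and 248 in DOX and 19.2, 19.9 and 34.6 in D_MgHCF and fell by 3.16 (adjusted p = 0.000112), and in the regulatory cap Psmd1 was at 60.7, 77.7 and 80.2 in DOX and 6.21, 6.42 and 9.56 in D_MgHCF and fell by 3.15 (adjusted p = 0.000104). Every D_MgHCF library of both was far below DOX, with replicate 3 the least low. Lysosomal genes were lower in 16 of 25 (64%, beside 38.1% of all genes) and higher in 1 (4%, beside 32.6%). Their median was -0.87, or 0.33 with TPM and 0.03 with quantile normalization. The autophagy machinery had 9 of 25 higher (36.0%) and 6 lower (24.0%), beside 32.6% and 38.1% of all genes (median 0.17). The higher genes included subunits of the kinase complex that starts autophagy. Atg101 was at 12.9, 6.73 and 4.44 in DOX and 38.5, 58.9 and 55.8 in D_MgHCF and rose by 2.62 (adjusted p = 0.000264), and Ulk1 was at 7.56, 6.103 and 4.76 in DOX and 17.9, 18.6 and 19.9 in D_MgHCF and rose by 1.49 (adjusted p = 0.000287). Neither overlapped between the groups.

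Of the heat shock proteins 12 of 20 were lower (60%, beside 38.1% of all genes) and 3 higher (15%, beside 32.6%). Their median was -0.76, or 0.37 with TPM. The cytosolic chaperone Hspa8 (Hsc70) was at 542, 705 and 730.3 in DOX and 72.01, 61.6 and 71.1 in D_MgHCF (log2 fold change -3.24, standard error 0.19, adjusted p = 0.000104), for which 9 near-identical genes exist. Its cofactor Hspa4 was at 125, 150.4 and 162 in DOX and 10.3, 13.2 and 41.6 in D_MgHCF and fell by 2.94 (adjusted p = 0.000463). The mitochondrial chaperonin Hspd1 was at 619.9, 795 and 834 in DOX and 169, 138 and 89.1 in D_MgHCF and fell by 2.53 (adjusted p = 0.000168). Hspa4 was highest and Hspd1 lowest in D_MgHCF replicate 3. Unfolded protein response genes were lower in 14 of 24 (58.3%) and higher in 6 (25%), with a median of -0.65, or 0.55 with TPM and 0.16 with quantile normalization. Against that direction, the transcription factor Xbp1 was at 3.22, 2.54 and 2.82 in DOX and 16.2, 21.5 and 13.01 in D_MgHCF and rose by 2.19 (adjusted p = 0.000153), and the cochaperone Dnajb9 was at 3.33, 2.81 and 2.41 in DOX and 28.1, 32.3 and 6.39 in D_MgHCF and rose by 2.33 (adjusted p = 0.00296).

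Glycolytic enzymes, which turn glucose into pyruvate and lactate, were lower in 13 and higher in 3 of 17 (median -1.70, -0.56 with TPM), and their share of reads was 2.33, 2.37 and 2.35% in DOX and 1.23, 1.13 and 0.885% in D_MgHCF. Ldha, lactate dehydrogenase A, was at 1272, 1632 and 1621 in DOX and 241, 198 and 157 in D_MgHCF (log2 fold change -2.93, standard error 0.24, adjusted p = 0.000112). Pgam1, Eno1 and Pkm, which catalyse the last steps to pyruvate, fell by 2.58, 2.52 and 2.06. The FPKM of Eno1 was 885, 1102 and 1124 in DOX and 227, 183 and 136 in D_MgHCF, and its transcripts match 3 other genes, Eno1b over 1736 bases at 99.5% identity. Gapdh was listed at 112, 2.15 and 85.8 in DOX and 1.76, 2.38 and 1.47 in D_MgHCF and fell by 3.46 (adjusted p = 0.0228). DOX replicate 2 was at the D_MgHCF level, and the call was lost without DOX replicate 1 (-2.54, adjusted p = 0.105), without DOX replicate 3 (-2.73, adjusted p = 0.0718), without D_MgHCF replicate 2 (adjusted p = 0.056), with TPM (adjusted p = 0.107) and with FPKM over the summed reads (adjusted p = 0.076). Its transcripts match 140 other genes, between which its reads could be divided.

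Nuclear-encoded respiratory chain subunits were lower in 72 of 75 (96%, beside 81.9% of the 1994 most abundant protein-coding genes) and higher in 1. Their median was -1.48, or -0.30 with TPM, beside -1.37 and -0.17 for those abundant genes. Per-library medians of the subunits were -1.23, -1.48 and -1.77. The ATP synthase subunit gene Atp5c1 was at 229.9, 304 and 311 in DOX and 61.4, 41.6 and 32.9 in D_MgHCF and fell by 2.64 (adjusted p = 0.000142), with every D_MgHCF library under every DOX library. The mRNAs of the mitochondrial genome did not follow them, with 4 of 13 higher (30.8%) and 2 lower (15.4%), beside 32.6% and 38.1% of all genes. Per-library medians of these mRNAs were 0.53, 0.35 and -0.16. mt-Nd2, a complex I subunit, was at 429, 367 and 266 in DOX and 887, 902 and 551 in D_MgHCF and rose by 1.13 (adjusted p = 0.00612). The ribosomal RNA mt-Rnr1 went the other way, at 5514, 7272 and 7253 in DOX and 1449.5, 721 and 256 in D_MgHCF (log2 fold change -3.36, standard error 0.56, adjusted p = 0.000784), so transcripts of the same strand of the mitochondrial genome moved in opposite directions.

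The lowest median of the 53 lists was that of the actin and contractile cytoskeleton, where all 20 genes tested were lower (median -2.02, -0.81 with TPM, per-library medians -1.72, -2.10 and -2.18). Their share of reads was 2.86, 2.98 and 3.05% in DOX, 1.52, 1.32 and 1.19% in D_MgHCF and 1.26, 1.36 and 1.41% in Unt. Actg1, cytoplasmic gamma-actin, was at 1438, 1747 and 1815 in DOX and 169, 143 and 195 in D_MgHCF (log2 fold change -3.30, standard error 0.22, adjusted p = 0.000104), and its transcripts match 6 other genes. Both of the following encode actin-binding proteins, a calponin and a tropomyosin. Cnn2 was at 267, 334 and 331 in DOX and 48.3, 32.7 and 47.6 in D_MgHCF and fell by 2.84 (adjusted p = 0.000104), and Tpm1 was at 367, 503 and 521 in DOX and 73.7, 57.6 and 61.4 in D_MgHCF and fell by 2.82 (adjusted p = 0.000104). The D_MgHCF libraries of these 3 genes were close to each other and several times under DOX.

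Collagens were lower in 16 of 17 (94.1%) and higher in 1 (median -1.57, -0.38 with TPM). Other matrix genes were lower in 12 of 16 (75%) and higher in 1 (median -1.38, -0.21 with TPM). The matrix genes lay near the 1994 most abundant protein-coding genes, of which 81.9% were lower (median -1.37, -0.17 with TPM). Col1a2, a chain of type I collagen, was at 31.3, 39.9 and 42.3 in DOX and 6.704, 4.195 and 2.73 in D_MgHCF (log2 fold change -2.86, standard error 0.27, adjusted p = 0.000142). The collagen-crosslinking enzyme Lox was at 315, 401 and 443 in DOX and 124, 82.95 and 43.4 in D_MgHCF and fell by 2.31 (adjusted p = 0.00053). The protease inhibitor Timp1 was at 166, 209 and 214 in DOX and 49.00, 41.5 and 30.9 in D_MgHCF and fell by 2.27 (adjusted p = 0.000142). In all 3 genes the order of the D_MgHCF libraries was the same, with replicate 1 the highest and replicate 3 the lowest.

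SR splicing factors and hnRNPs were lower in 26 of 31 (83.9%) and higher in 0 (median -1.47, -0.33 with TPM). Of the 1994 most abundant protein-coding genes 81.9% were lower (median -1.37, -0.17 with TPM). Hnrnpa1 was at 383, 491 and 509 in DOX and 83.2, 64.6 and 60.4 in D_MgHCF and fell by 2.72 (adjusted p = 0.000107), and its transcripts match 10 other genes. Hnrnpa2b1 was at 338, 420.4 and 446 in DOX and 85.03, 56.1 and 43.99 in D_MgHCF and fell by 2.72 (adjusted p = 0.000142). Subunits of RNA polymerase II, Mediator and TFIID showed no common direction, with 19 of 53 higher (35.8%) and 20 lower (37.7%). The shares of all genes were 32.6% and 38.1%. The list median was -0.19, or 1.00 with TPM and 0.31 with quantile normalization. Of the 7SK and P-TEFb regulators 8 of 13 were higher (61.5%, beside 32.6% of all genes) and 2 lower (15.4%, beside 38.1%). The lower ones were Rn7sk and Larp7, which binds and stabilises 7SK. Larp7 was at 63.7, 78.9 and 80.9 in DOX and 21.5, 18.6 and 17.2 in D_MgHCF and fell by 1.91 (adjusted p = 0.000132).

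Of the small nuclear and nucleolar RNAs 10 of 34 tested were lower (29.4%, beside 38.1% of all genes) and 6 higher (17.6%, beside 32.6%). Another 134 were not tested. The guide RNA of Cajal bodies Scarna2 was at 8.12, 7.34 and 12.3 in DOX and 0, 0 and 0.0984 in D_MgHCF and fell by 3.28 (adjusted p = 0.000104). The nucleolar guide RNA Snora47 was at 8.59, 28.8 and 22.6 in DOX and 3.105, 0 and 0.590 in D_MgHCF and fell by 3.34 (adjusted p = 0.000787). Each was listed at 0 in at least 1 D_MgHCF library, and Snora47 lies within Zbed3 on the same strand. Scarna2 passed the filter through DOX alone. The list held 5 genes that passed through 1 group alone and was not counted again without them. The long nuclear RNA Malat1 was at 222, 299.8 and 352 in DOX and 80.2, 53.5 and 48.2 in D_MgHCF and fell by 2.26 (adjusted p = 0.00019).

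Cell cycle genes did not move as a block. DNA replication and nucleotide synthesis genes were lower in 17 of 31 (54.8%, beside 38.1% of all genes) and higher in 8 (25.8%, beside 32.6%). Their median was -0.77, or 0.43 with TPM. Besides Rrm1, the thymidine kinase Tk1 was at 48.6, 60.2 and 63.6 in DOX and 10.5, 7.76 and 7.603 in D_MgHCF and fell by 2.61 (adjusted p = 0.000104). The helicase subunit Mcm2 was at 74.4, 84.4 and 94.5 in DOX and 16.03, 10.7 and 24.5 in D_MgHCF and fell by 2.31 (adjusted p = 0.000219). Mitosis genes were higher in 12 of 30 (40.0%) and lower in 9 (30.0%), beside the 32.6% and 38.1% of all genes (median 0.19). The mitotic kinase Plk1 was at 11.4, 8.51 and 9.12 in DOX and 48.9, 53.8 and 42.9 in D_MgHCF and rose by 2.22 (adjusted p = 0.000112), whereas the mitotic cyclin Ccnb2 was at 50.9, 59.2 and 62.7 in DOX and 15.4, 10.6 and 5.93 in D_MgHCF and fell by 2.41 (adjusted p = 0.00023). The groups overlapped in neither. Of the G1 list 6 of 15 were higher (40%) and 4 lower (26.7%), beside 32.6% and 38.1% of all genes. The median of the list was -0.23, or 0.94 with TPM. In it the CDK inhibitor Cdkn2d was at 8.08, 4.56 and 2.53 in DOX and 29.6, 37.1 and 36.8 in D_MgHCF and rose by 2.65 (adjusted p = 0.000219), as Cdkn1a did, while Ccnd1 fell.

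Of 26 genes of iron uptake, storage, export and sensing 12 were lower (46.2%, beside 38.1% of all genes) and 5 higher (19.2%, beside 32.6%; median -0.40, or 0.74 with TPM). Tfrc, the transferrin receptor that brings iron into the cell and whose mRNA is stabilised when iron is low, was at 172, 216 and 249 in DOX and 34.2, 40.5 and 3.87 in D_MgHCF (log2 fold change -3.45, standard error 0.70, adjusted p = 0.00215). Its level in D_MgHCF replicate 3 was far under that in the other D_MgHCF libraries, and its adjusted p was 0.0506 with quantile normalization. Hmox1, haem oxygenase, which frees iron from haem, was at 16.7, 10.6 and 6.81 in DOX and 24.9, 47.6 and 94.8 in D_MgHCF (log2 fold change 2.08, standard error 0.46, adjusted p = 0.00346). Tfrc and Hmox1 deviated in opposite directions in D_MgHCF replicate 3. Fth1, the heavy chain of ferritin, was at 3259, 4183 and 4241 in DOX and 1735, 1344 and 1191 in D_MgHCF and fell by 1.46 (adjusted p = 0.00181), but its log2 fold change was 0.15 with quantile normalization (adjusted p = 0.186).

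Ferroptosis lipid and thiol genes were lower in 9 of 17 (52.9%, beside 38.1% of all genes) and higher in 3 (17.6%, beside 32.6%). Their median was -0.53, or 0.27 with TPM. The phospholipid peroxidase Gpx4, which guards against ferroptosis, was at 399, 490.0 and 473 in DOX and 215, 180.3 and 171 in D_MgHCF and fell by 1.27 (adjusted p = 0.000559). With TPM its log2 fold change was -0.05 (adjusted p = 0.646), and with quantile normalization it was 0.31 (adjusted p = 0.053). Vdac3, a channel of the outer mitochondrial membrane, was at 39.4, 47.1 and 50.8 in DOX and 5.86, 6.18 and 14.5 in D_MgHCF and fell by 2.35 (adjusted p = 0.000294). The limiting enzyme of glutathione synthesis and an enzyme that breaks glutathione down both rose. Gclc was at 11.9, 8.96 and 6.73 in DOX and 43.6, 52.8 and 25.3 in D_MgHCF and rose by 2.00 (adjusted p = 0.000467), least in D_MgHCF replicate 3. Chac1 was at 11.6, 3.38 and 2.01 in DOX and 12.6, 21.4 and 63.99 in D_MgHCF and rose by 2.30 (adjusted p = 0.0103), most in that replicate.

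All 13 peroxidases, superoxide dismutases and catalase tested were lower (median -1.52, -0.32 with TPM and -0.18 with quantile normalization). Of the 1994 most abundant protein-coding genes 81.9% were lower, with a median of -1.37, or -0.17 with TPM. The hydrogen peroxide reductase Prdx1 was at 483, 672 and 661 in DOX and 203, 169 and 112 in D_MgHCF and fell by 1.93 (adjusted p = 0.000353). The peroxidase of the endoplasmic reticulum Gpx8 was at 79.6, 115 and 119 in DOX and 27.03, 24.9 and 14.6 in D_MgHCF and fell by 2.21 (adjusted p = 0.000221). Both were lowest in D_MgHCF replicate 3. NRF2, the factor that drives antioxidant genes, is encoded by Nfe2l2. Nfe2l2 was at 8.73, 6.61 and 6.695 in DOX and 15.8, 16.1 and 15.97 in D_MgHCF and rose by 1.03 (adjusted p = 0.000856). NRF2 and its targets were lower in 14 of 28 (50%, beside 38.1% of all genes) and higher in 5 (17.9%, beside 32.6%). Their median was -0.56, or 0.22 with TPM. Me1, an NADPH source, was at 73.8, 90.5 and 102 in DOX and 20.1, 13.1 and 12.6 in D_MgHCF and fell by 2.48 (adjusted p = 0.000122), while Gclc and Hmox1, also targets, rose.

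Magnesium transport genes, listed because MgHCF carries magnesium, were higher in 5 of 12 (41.7%) and lower in 4 (33.3%), beside the 32.6% and 38.1% of all genes (median 0.32, or -0.04 with quantile normalization). The transporter gene Cnnm2 was at 2.999, 1.91 and 1.51 in DOX and 13.9, 15.9 and 10.7 in D_MgHCF and rose by 2.22 (adjusted p = 0.000168). The transporter gene Slc41a1 was at 11.8, 10.2 and 8.87 in DOX and 39.9, 34.8 and 22.3 in D_MgHCF and rose by 1.53 (adjusted p = 0.000558). Magt1, which also serves protein glycosylation, was at 40.8, 49.6 and 50.5 in DOX and 14.1, 10.9 and 13.3 in D_MgHCF and fell by 1.80 (adjusted p = 0.000153). No D_MgHCF library overlapped DOX for these 3 genes.

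**Figure D2:**
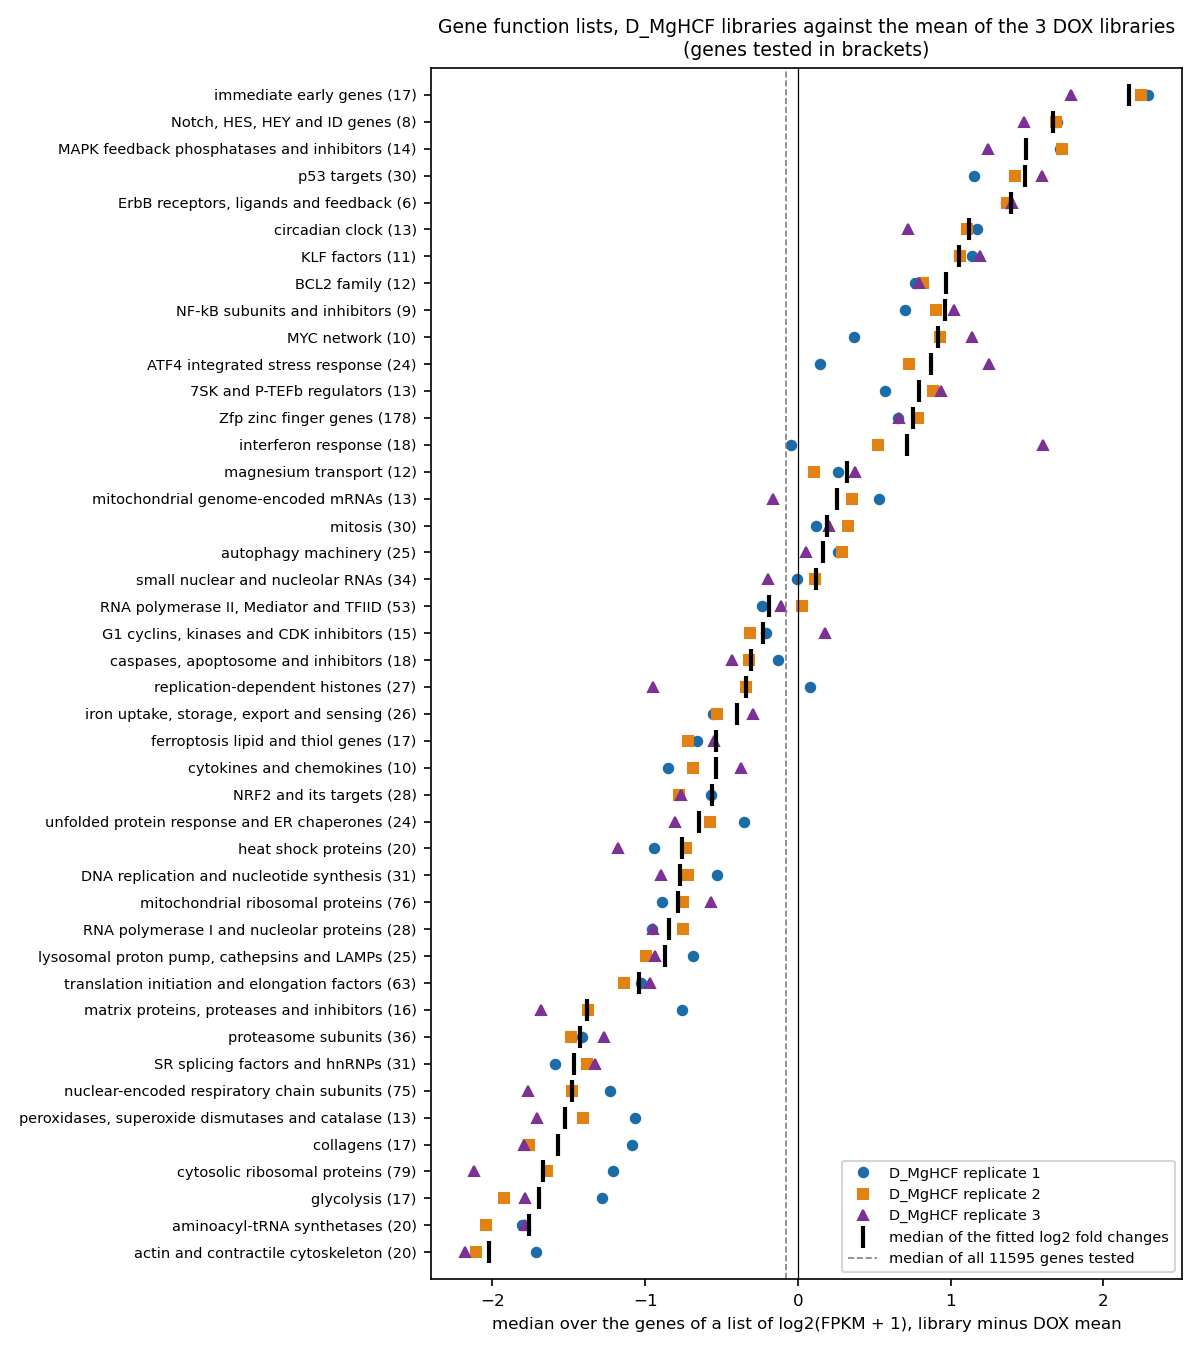
Median difference of log2(FPKM + 1) between each D_MgHCF library and the mean of the 3 DOX libraries over the genes of 44 function lists (number of genes tested in brackets), with the median of the fitted log2 fold changes as a black bar and that of all genes tested, -0.08, as a dashed line. Immediate early genes lie highest at 2.17 and actin and contractile genes lowest at -2.02, and the medians between -1.04 and -0.19 lie above 0 with TPM.

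Stress and immune lists separated the D_MgHCF libraries. The integrated stress response driven by ATF4 had 12 of 24 genes higher (50%) and 9 lower (37.5%), beside 32.6% and 38.1% of all genes. Its per-library medians were 0.14, 0.73 and 1.25. Atf3, a stress-induced transcription factor, was at 5.93, 2.03 and 2.53 in DOX and 21.8, 32.99 and 24.6 in D_MgHCF and rose by 2.69 (adjusted p = 0.000214). Ddit4, an inhibitor of mTORC1, was at 11.9, 4.97 and 3.005 in DOX and 22.5, 24.8 and 66.4 in D_MgHCF and rose by 2.35 (adjusted p = 0.00262). Atf3 was highest in D_MgHCF replicate 2, whereas Ddit4 and Chac1 were highest in replicate 3.

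Interferon response genes were higher in 5 of 18 (27.8%, beside 32.6% of all genes) and lower in 1, with per-library medians of -0.05, 0.53 and 1.603. Irf1, a transcription factor of the response, was at 5.75, 2.901 and 1.83 in DOX and 20.8, 27.8 and 25.2 in D_MgHCF and rose by 2.597 (adjusted p = 0.00021), with every D_MgHCF library above DOX. Usp18, which dampens interferon signalling, was at 18.6, 13.1 and 11.4 in DOX and 29.8, 40.5 and 80.9 in D_MgHCF and rose by 1.64 (adjusted p = 0.00266). The antiviral gene Ifit1 was at 16.4, 10.8 and 8.01 in DOX and 13.8, 33.2 and 85.1 in D_MgHCF, with D_MgHCF replicate 1 within the DOX range, and its adjusted p of 0.0343 became 0.0508, 0.0643 and 0.0975 when DOX replicate 1, 2 or 3 was left out, and 0.082 when D_MgHCF replicate 2 was. Ifit3 was at 11.6, 5.36 and 4.11 in DOX and 6.19, 15.9 and 73.1 in D_MgHCF and did not pass (adjusted p = 0.0974), but did without D_MgHCF replicate 1 (2.26, adjusted p = 0.00679), in the fit over all 4 groups, with TPM and with FPKM over the summed reads (adjusted p = 0.0408, 0.0291 and 0.0362).

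Of the cytokines and chemokines 4 of 10 were higher (40%) and 5 lower (50%), beside 32.6% and 38.1% of all genes. The list median was -0.54, or 0.65 with TPM and 0.09 with quantile normalization. The neutrophil attractant Cxcl5 was at 10.2, 14.6 and 15.5 in DOX and 1.15, 0.675 and 0.219 in D_MgHCF and fell by 3.12 (adjusted p = 0.000112). The CXCR4 ligand Cxcl12 was at 47.9, 66.5 and 71.6 in DOX and 15.01, 9.96 and 5.74 in D_MgHCF and fell by 2.55 (adjusted p = 0.000231). The interferon-induced Cxcl10 was at 5.79, 3.67 and 2.65 in DOX and 8.27, 15.3 and 31.01 in D_MgHCF and rose by 1.80 (adjusted p = 0.00471). In all 3 genes D_MgHCF replicate 3 was the farthest from DOX.

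Replicate agreement was high for direction and lower for size. Among the DOX libraries the Pearson correlations of log2(FPKM + 1) over the 11595 genes were at least 0.986, whereas among the D_MgHCF libraries they were 0.975 for replicates 1 and 2, 0.892 for 1 and 3 and 0.931 for 2 and 3. The median SD of a gene on this scale was 0.159 in DOX and 0.301 in D_MgHCF. In 8766 genes (75.6%) the 3 D_MgHCF libraries did not overlap the 3 DOX libraries, with 4097 higher (35.3%) and 4669 lower (40.3%). With TPM these counts were 7081 and 1696. Of the 8200 called genes 137 overlapped, and 703 genes without overlap were not called. Against the DOX mean, 8199, 8200 and 8195 of the 8200 called genes had the sign of the group difference in D_MgHCF replicates 1, 2 and 3. Since each library enters the group mean, part of this agreement is built in.

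Pairs of libraries that share none were therefore set side by side. The differences D_MgHCF 1 minus DOX 1 and D_MgHCF 2 minus DOX 2 correlated at 0.915 across genes, 1 and 3 at 0.754, and 2 and 3 at 0.890, and all 3 differences had the same sign in 80.8% of genes. In the 5 other ways of pairing the libraries that share was 80.2% to 81.7%. These correlations run across genes, which are not independent replicates. The least agreement was always between D_MgHCF replicates 1 and 3.

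**Figure D3:**
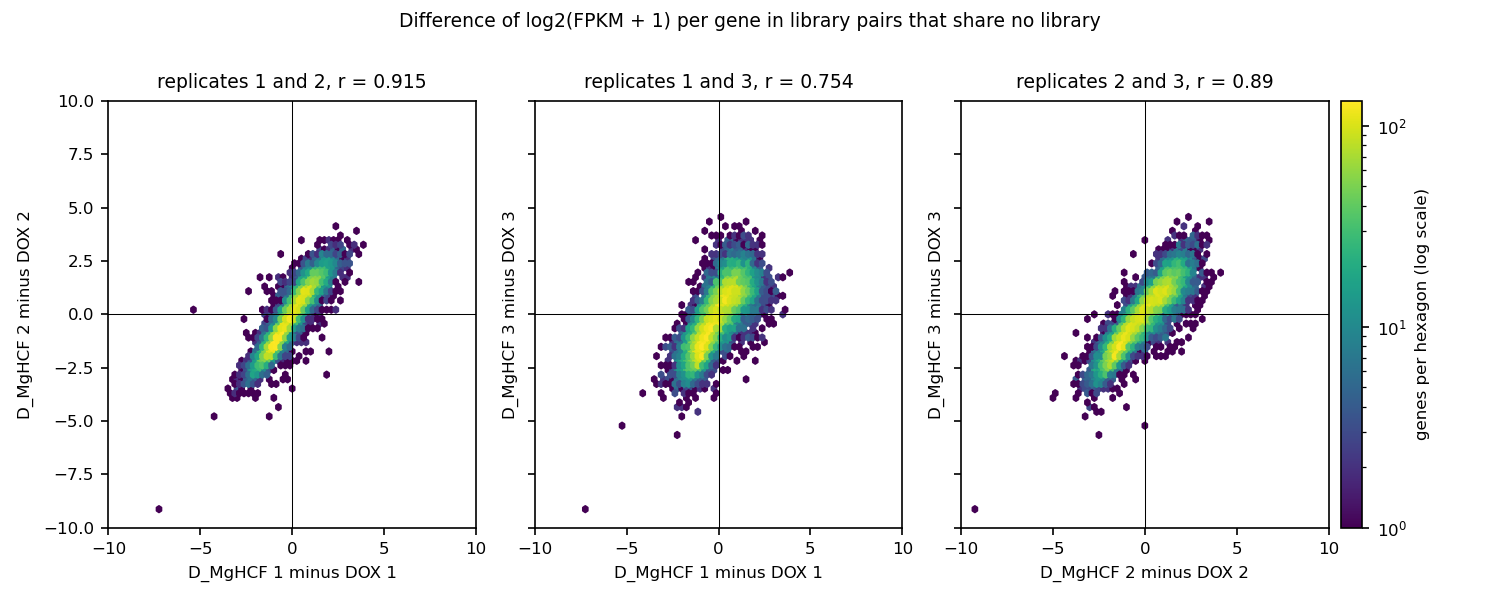
Differences of log2(FPKM + 1) between a D_MgHCF and a DOX library for each of 11595 genes, with the difference of one library pair on each axis and the number of genes per hexagon as colour on a log scale. The cloud is narrowest for replicates 1 and 2 (r = 0.915) and widest for replicates 1 and 3 (r = 0.754).

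D_MgHCF replicate 3 was the library farthest from the other D_MgHCF libraries in 56.6% of genes, compared with 28.8% for replicate 1 and 14.6% for replicate 2. It was also the one farthest from the DOX mean in 46.1% of genes. Ribosomal proteins (per-library medians -1.21, -1.64 and -2.12) and replication-dependent histones (0.08, -0.34 and -0.95) were lowest in it. The histone list had 2 of 27 genes higher (7.41%) and 9 lower (33.3%), beside 32.6% and 38.1% of all genes. Its median was -0.34, or 0.28 with TPM. Tcp11l2 showed the largest deficit of that library among genes averaging an FPKM of 10 or more in D_MgHCF, at 4.71, 3.88 and 4.22 in DOX and 59.9, 41.6 and 3.96 in D_MgHCF (log2 fold change 2.16, standard error 0.78, adjusted p = 0.0342). Its call was lost without any 1 of the other 5 libraries, at adjusted p between 0.062 and 0.128, with quantile normalization (0.0878) and with voom (0.0612). Zswim3 was at 3.16, 2.99 and 3.703 in DOX and 29.4, 18.5 and 2.38 in D_MgHCF. Ptgs2, the inducible cyclooxygenase, was at 7.68, 9.39 and 10.6 in DOX and 34.5, 23.98 and 2.82 in D_MgHCF. Neither passed (adjusted p = 0.0657 and 0.487), and both did without D_MgHCF replicate 3, with log2 fold changes of 2.51 and 1.55 (adjusted p = 1.31e-05 and 8.53e-05). Zswim3 also passed with the replicate number as a block, in the fit over all 4 groups, with TPM and with FPKM over the summed reads (adjusted p = 0.026, 0.0224, 0.0109 and 0.0216).

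In the opposite direction, the transcription factor Cebpb was at 3.504, 2.23 and 1.78 in DOX and 3.51, 6.27 and 31.9 in D_MgHCF. It passed (log2 fold change 1.58, adjusted p = 0.0471), but not without DOX replicate 1, 2 or 3 (adjusted p = 0.0809, 0.0849 and 0.111) or without D_MgHCF replicate 2 (0.0628), with quantile normalization (0.164) or with voom (0.0658). The linker histone gene H1f0 was at 7.92, 6.03 and 6.52 in DOX and 3.06, 4.36 and 25.1 in D_MgHCF and did not pass (adjusted p = 0.898). Without D_MgHCF replicate 3 it was lower, with a log2 fold change of -0.74 (adjusted p = 0.00458).

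The difference also varied with the level of a gene. When the 9967 protein-coding genes tested were divided into 5 bins of equal size by their mean FPKM in Unt, libraries that enter neither group, the median log2 fold change was 0.62 in the lowest bin and -1.25 in the highest. In the lowest bin 53.2% of genes were higher and 17.4% lower, and in the highest 11.5% were higher and 72.0% lower. Of the 1994 genes of the lowest bin 595 passed the filter through 1 group alone, and of the highest 0. Without them, a choice made after seeing the data, 40.6% of the lowest bin were higher and 18.7% lower. With TPM the medians ran from 1.76 to -0.06, so the same order held around another centre. Genes with few introns were higher more often, where 34.5% of all coding genes tested were higher and 36.8% lower. The counts by introns were not split by level or repeated without genes that passed the filter through 1 group alone. Of the 233 coding genes without introns 53.2% were higher and 25.3% lower, and of the 359 with 1 intron 63.5% and 14.5%, compared with 26.4% and 40.4% of 1387 genes with 20 or more introns. By genomic span the medians of 5 such bins stayed between -0.11 and 0.08.

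**Figure D4:**
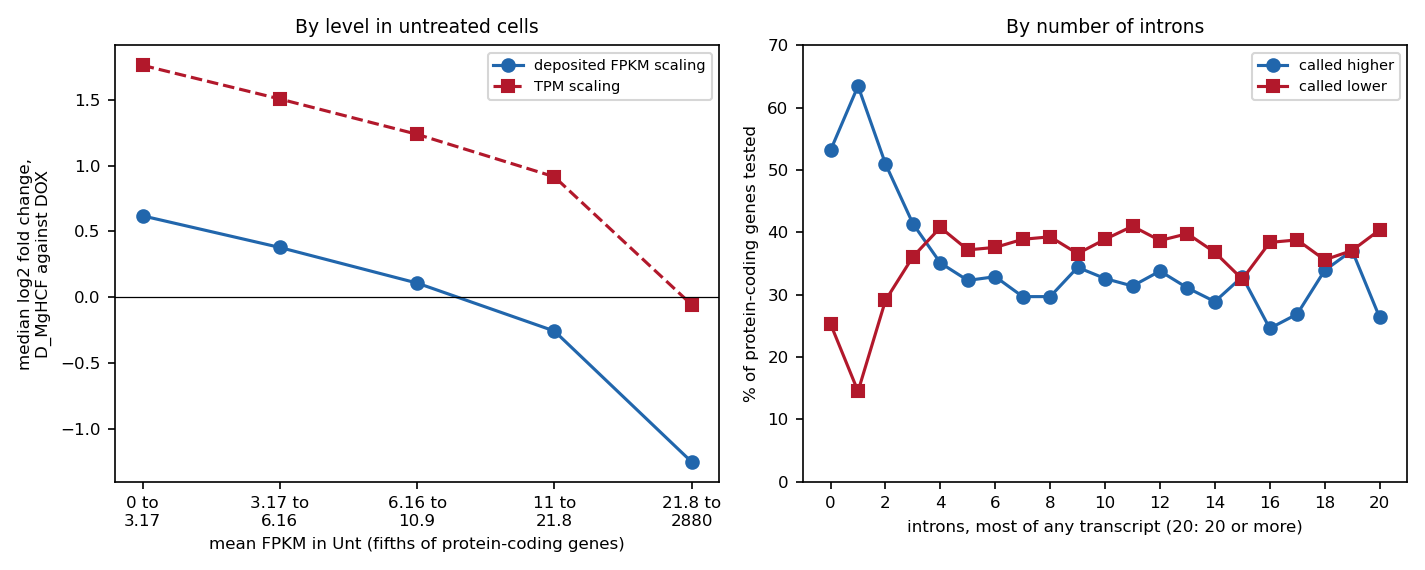
Left, median log2 fold change of D_MgHCF against DOX in 5 bins of the protein-coding genes by mean FPKM in Unt, with the deposited scaling (circles) and with TPM (squares). Right, percentage of protein-coding genes called higher (circles) or lower (squares) by their number of introns. Of the genes with 1 intron 63.5% were higher and 14.5% lower, beside 34.5% and 36.8% of all protein-coding genes tested.

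Among gene types, 530 of 753 processed pseudogenes were lower and 42 higher (median -1.10), and 74 of 152 antisense RNAs were higher and 18 lower (median 0.68). Processed pseudogenes resemble abundant mRNAs such as those of ribosomal proteins and glycolysis, and the part of their reads that came from those mRNAs was not tested. A total of 967 genes passed the filter through 1 group alone, of which 751 were higher in D_MgHCF and 216 lower. Of the 112 genes described, 28 had transcripts that match those of at least 1 other gene and 42 overlapped another annotated gene. Reads could be divided in such pairs. Besides those named above, these include Hspd1 with Hspe1, Dkc1 with Mpp1, Bid with Bcl2l13 and Cebpb with Tmem189, all on opposite strands, as well as Cycs, Prdx1, Vdac3, Gpx4 and Cdc42ep2, which match 4, 2, 2, 2 and 23 other genes, and Ifit3, which matches Ifit3b.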

How the data were processed

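The libraries were made from poly(A) RNA and read as paired-end reads of 150 bp. The authors deposited FPKM values per gene and library, 3 libraries in each of 4 groups. HISAT2 2.0.5 and the build GRCm38 (mm10) are named in the submitters' processing notes, whereas the counting program, its use of strand and the annotation release are not given in the sources used here. The FPKM values were multiples of what 1 read is worth, and 99.985% to 100% of them gave whole reads within 0.05. All sample columns were mapped from their names.

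Log2(FPKM + 1) was compared with limma 3.58.1 (trend, R 4.3.3) over the 3 D_MgHCF and 3 DOX libraries, for genes with an FPKM of at least 1 in 3 or more of them. A gene was called at a Benjamini-Hochberg adjusted p under 0.05. Log2 fold changes are on the log2(FPKM + 1) scale and understate the change of low genes, and FPKM values are printed unlogged. No count model was used as the main test, because FPKM are not counts. The script was run on simulated data in which both groups had the spread of the DOX libraries and few genes were changed. The D_MgHCF libraries spread more (median SD of a gene 0.301, beside 0.159 in DOX), so the simulation did not cover that setting. Shares of reads come from the recovered reads. Near-identical copies were other genes whose transcripts aligned over 150 bases or more with an identity of 95% or above (BLAST 2.17.0, GENCODE M21). Introns are the largest number over a gene's transcripts. The filter keeps a gene that is high in 1 group alone, so shares of members tested are not shares of all members.

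Genes were named by rule: the 12 largest rises and 12 largest falls without overlap whose higher group averaged an FPKM of 10 or more, the leading and most abundant called members of 53 function lists, the genes for which D_MgHCF replicate 3 stood farthest from replicates 1 and 2, and apoptosis and iron genes that the study names. Of these, 112 genes and 44 lists are described, and some genes that the rule covers are not reported here. The members, lists and rules were chosen with earlier results of these data known. Alternatives were TPM, FPKM over summed reads, quantile normalization, voom on the recovered reads, other filters and pseudocounts, a fit over all 4 groups, the replicate number as a block, and leaving out each library. TPM centred on the median gene, and shares without genes that passed the filter through 1 group alone, were added after seeing the data.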

Additional observations from a re-analysis of the deposited data

How the results depend on the processing

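As deposited, 3782 genes were called higher and 4418 lower, and both numbers moved with the scaling and the filter. They were 6623 and 1266 with TPM, 6115 and 1933 with FPKM over the summed reads, and 3242 and 3417 with quantile normalization, so that 84.0%, 76.0% and 48.7% of calls were higher, beside 46.1% as deposited. TPM centred on the median gene, an alternative chosen after seeing the data, gave 3013 and 4957. With an FPKM of at least 10 required, 824 were higher and 3143 lower, and with any FPKM above 0, 5305 and 4400. A 2-fold minimum left 2383 higher and 3035 lower. Genes without overlap, 4097 higher and 4669 lower, numbered 7081 and 1696 with TPM, 6536 and 2378 with FPKM over the summed reads, 8130 and 5191 with any FPKM above 0, and 907 and 3202 with at least 10. Leaving out each library in turn gave 3188 to 4122 higher and 3840 to 4868 lower genes, the most of both without D_MgHCF replicate 3, and 4187 to 4582 higher and 4711 to 5354 lower genes without overlap. The replicate number as a block gave 3636 and 4256. Deviations of same-numbered libraries correlated at -0.26, 0.02 and -0.11, so the numbers were not taken to pair the libraries, and the block moved no count by over 1.5 times.

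List medians under the alternatives had the other sign in 39 values from 17 lists. TPM and FPKM over the summed reads moved the median of all genes from -0.08 to 1.01 and 0.69, and relative to that median 44 of the 53 lists lay on the same side under all 4 scalings. With TPM the medians became 0.85 for caspases, 0.74 for iron genes, 0.27 for ferroptosis genes, 0.22 for NRF2 targets, 0.55 for the unfolded protein response, 0.37 for heat shock proteins, 0.65 for cytokines, 0.31 for mitochondrial ribosomal proteins, 0.10 for translation factors, 0.33 for lysosomal genes, 0.43 for DNA replication, 0.94 for G1 genes, 0.28 for histones, 1.00 for RNA polymerase II and Mediator and 0.35 for RNA polymerase I. With FPKM over the summed reads they were, in the same order but without translation factors, 0.58, 0.46, 0.069, 0.019, 0.30, 0.13, 0.38, 0.069, 0.078, 0.19, 0.66, 0.21, 0.74 and 0.10. With quantile normalization they were 0.16 for the unfolded protein response, 0.090 for cytokines, 0.027 for lysosomal genes, 0.31 for RNA polymerase II and Mediator, -0.039 for magnesium transport and -0.19 for small nuclear and nucleolar RNAs, which also lay between -0.30 and -0.019 without DOX replicate 1, 2 or 3 or D_MgHCF replicate 2. Of the genes, Fth1 turned to 0.15 and Gpx4 to 0.31 with quantile normalization, Bax to 0.13 with TPM and 0.047 with quantile normalization. With each library left out in turn, H1f0 lay between -0.74 (without D_MgHCF replicate 3) and 0.60, and Ptgs2 between -0.058 (without D_MgHCF replicate 1) and 1.55 (without D_MgHCF replicate 3). Of 1456 gene values over 13 settings, 1402 kept their direction and side of the threshold. Another 6 changed sign, with or without a change of call. Of those that kept their sign, 33 lost a call and 15 gained one. Their causes were not tested. The replicate block gave Dusp4 and Zswim3 a call and changed no other call among them. Fold changes of genes under an FPKM of 1 in a group are limited by the pseudocount.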
